A study of Mus musculus with 8 samples.

Results

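The genes described here are 40 fibroblast and extracellular matrix genes, chosen by name from the 48709 genes listed in each pancreas library. They comprise 5 fibrillar collagen genes, 6 genes of the basement membrane, 5 genes of collagens VI, XII and XIV, 9 genes of fibronectin, elastic fibers and matricellular proteins, 3 small leucine-rich proteoglycan genes, 6 genes of matrix enzymes and their inhibitors, and 6 genes of fibroblast receptors and cytoskeleton. All 40 were found, 39 of them by symbol and *Ccn2* under its older name *Ctgf*. RNA-Seq was performed on pancreas tissue of male mice that were 8 weeks old, 24 hours after induction. There were 2 libraries in each of 4 groups (8 libraries in all). WT mice and cKO mice (*Pfkfb3* fl/fl; *Pdx1*-Cre) received either saline or FAEE-SAP, an alcoholic severe acute pancreatitis induced with POA, a fatty acid, together with ethanol. The *Pdx1* promoter drives Cre in the pancreatic epithelium, so that fibroblasts, vessels, and leukocytes of cKO mice are not its known target. WT mice were purchased and cKO mice were bred from floxed and Cre lines, and a difference in origin and the genotype cannot be told apart.

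Fibroblasts and pancreatic stellate cells build the interstitial matrix of the pancreas from collagens I, III and V, fibronectin, elastic fibers, and proteoglycans, while epithelium and vessels rest on a basement membrane of collagen IV, laminin, and nidogen. Upon injury these cells can become contractile myofibroblasts that express smooth muscle actin and lay down collagen, and lysyl oxidases then crosslink the new fibers. Several of the genes are shared with other cells. Endothelial cells also make collagen IV, smooth muscle also expresses *Acta2*, *Tagln* and *Des*, and leukocytes also express *Vim*.

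The values are RPKM (mapped reads set against exon length and library size) divided by 1 factor per library, the median of its ratios to the geometric mean over 10985 genes, and are called scaled RPKM below. The factors ranged from 0.618 to 2.01. Depth worked out from the lowest values was 22.8 to 37.6 M reads per library, and the members had from 26.9 (*Col12a1*) to 5770 (*Dcn*) reads in the library where each was lowest. *Pfkfb3* was at 0.885 and 2.11 in the libraries labeled cKO saline against 1.71 and 1.70 in WT saline, and at 1.74 and 2.84 in cKO FAEE-SAP against 1.86 and 3.23 in WT FAEE-SAP. These values per gene do not show a deletion of 2 exons, so they do not check the genotype labels. Acinar markers were the most abundant list in every library, as the tissue label says. In bulk tissue, fewer cells of a type and less RNA per cell cannot be told apart.

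A total of 38 members passed the filter on low values (0.5 RPKM or more as deposited in 2 or more of the 8), and *Col12a1* and *Thbs2* did not. A gene was called when the Benjamini-Hochberg adjusted p of limma over the 11133 genes tested was under 0.05 and the change was at least 2-fold. After FAEE-SAP in WT mice, 1 of 38 members was called, *Loxl1*, which was higher, where 7.48% of all genes tested were called, 3.36% higher and 4.12% lower. In cKO mice FAEE-SAP against saline gave 0 members called (limma), beside 0.135% of all genes (0.126% higher, 0.00898% lower). There, 13 members had an unadjusted p under 0.05, all with positive differences, and the share over all genes was 10.9%. Between cKO and WT after saline 0 members and 0 genes of any kind were called (limma), with 0 members and 2.63% of all genes at an unadjusted p under 0.05. After FAEE-SAP, cKO against WT gave 0 members called (limma) against 2.64% of all genes (1.66% higher, 0.979% lower), with 10 members and 23% of all genes at an unadjusted p under 0.05. In the interaction of genotype and treatment 0 members were called (limma), beside 0.0719% of all genes (0.0449% higher, 0.0269% lower), and 7 members were under an unadjusted p of 0.05 against 12.6% of all genes.

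The fold changes of the members lay on both sides of 0 in WT mice and mostly above 0 in cKO mice. After FAEE-SAP in WT mice, 20 of the 38 had a positive and 18 a negative log2 fold change, and their median was 0.02, beside 0.01 over all genes tested. In cKO mice 36 were positive, 2 were negative, and the median was 0.72 beside -0.02 over all genes. For cKO against WT after FAEE-SAP the median was 0.67 beside 0.01 over all genes, with 32 positive, although with the values as deposited it was -0.27 beside -0.90. After saline the median for cKO against WT was -0.04 beside 0.02, with 14 positive. Over all 40 members with no filter, the medians were 0.00 in WT mice, 0.66 in cKO mice, and 0.65 for cKO against WT after FAEE-SAP. The genotype comparisons use the same 8 libraries as the treatment comparisons, so these medians are not independent of one another. Without cKO FAEE-SAP library 1 the median was 0.49 in cKO mice, with 34 members positive, and 0.51 for cKO against WT after FAEE-SAP, with 31 positive. The latter median was lower still, 0.40, without WT FAEE-SAP library 2. In WT mice the median was -0.27 without WT saline library 1 and 0.40 without WT saline library 2, and for cKO against WT after saline it was -0.28 and 0.28 without the same libraries. With the values as deposited, all 38 were positive in WT mice (median 1.27, beside 1.23 over all genes), so every negative difference of a member in WT mice is relative to the scaling. Likewise, 26 of the 38 were negative as deposited for cKO against WT after FAEE-SAP.

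**Figure D1:**
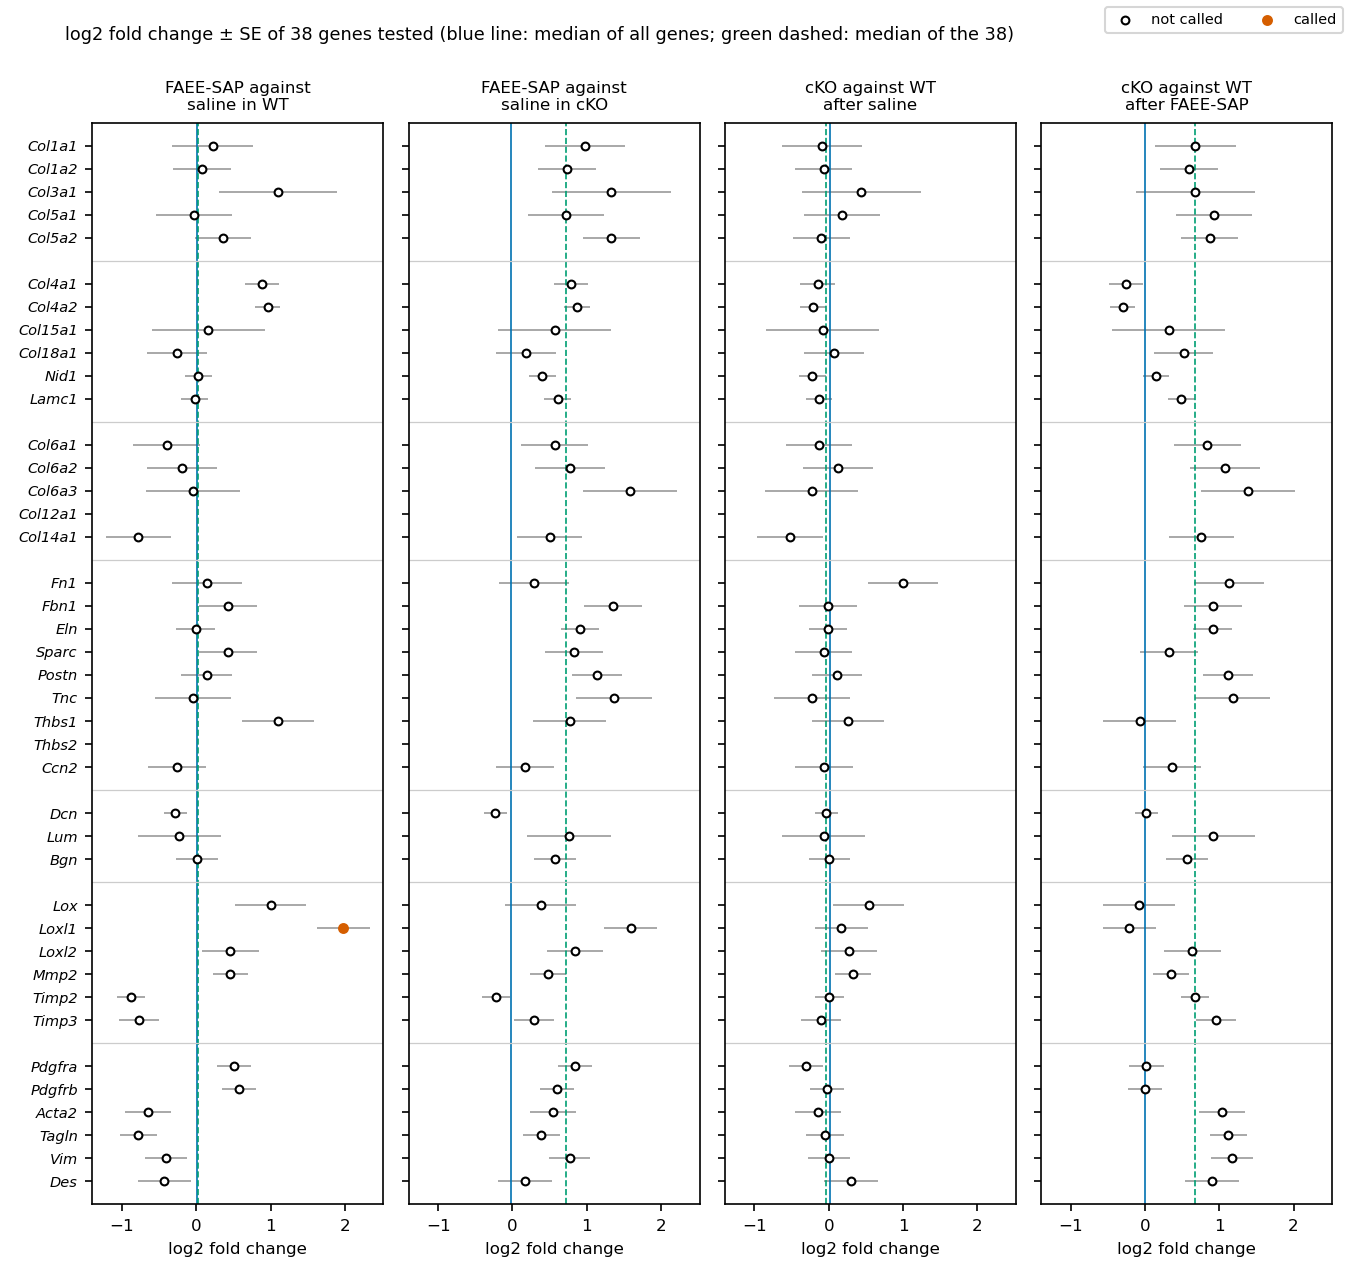
Horizontal axes give the log2 fold change on the scale of log2(scaled RPKM + 0.1) with its SE for the 38 members tested, 1 panel per comparison, genes ordered by role with gray lines between roles. The blue line is the median of all 11133 genes and the green dashed line that of the 38, which lies at 0.02 in WT, 0.72 in cKO, -0.04 for genotype after saline, and 0.67 for genotype after FAEE-SAP. Filled orange marks the 1 call, *Loxl1*.

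Both FAEE-SAP libraries were above both saline libraries for 9 of the 38 members in WT mice, where this held for 29.1% of all genes, and below for 6, beside 29.4%. In cKO mice 19 members were above, beside 20.2% of all genes, and 2 were below, beside 21.9%. After FAEE-SAP both cKO libraries were above both WT libraries for 20 members (26.8% of all genes) and below for 3 (25.1%). After saline it was 1 above (15.6%) and 4 below (13.6%). A single library held many of the high values. Of the 38 members, 23 had their highest scaled RPKM of all 8 libraries in cKO FAEE-SAP library 1, where 12.2% of all genes did.

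Levels differed widely among the members, as the plot of levels shows. *Dcn*, which encodes decorin, a proteoglycan that binds collagen fibrils, was the most abundant, with a mean scaled RPKM of 45.2 over the 8 libraries. *Vim*, the intermediate filament of mesenchymal cells and leukocytes, followed at 16.1, then *Sparc*, a collagen-binding matricellular protein, at 10.7, and *Col4a1*, a chain of collagen IV, at 8.19. The lowest were *Thbs2* at 0.274 and *Col12a1* at 0.178. RPKM is per length, so levels can be compared between genes.

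**Figure D2:**
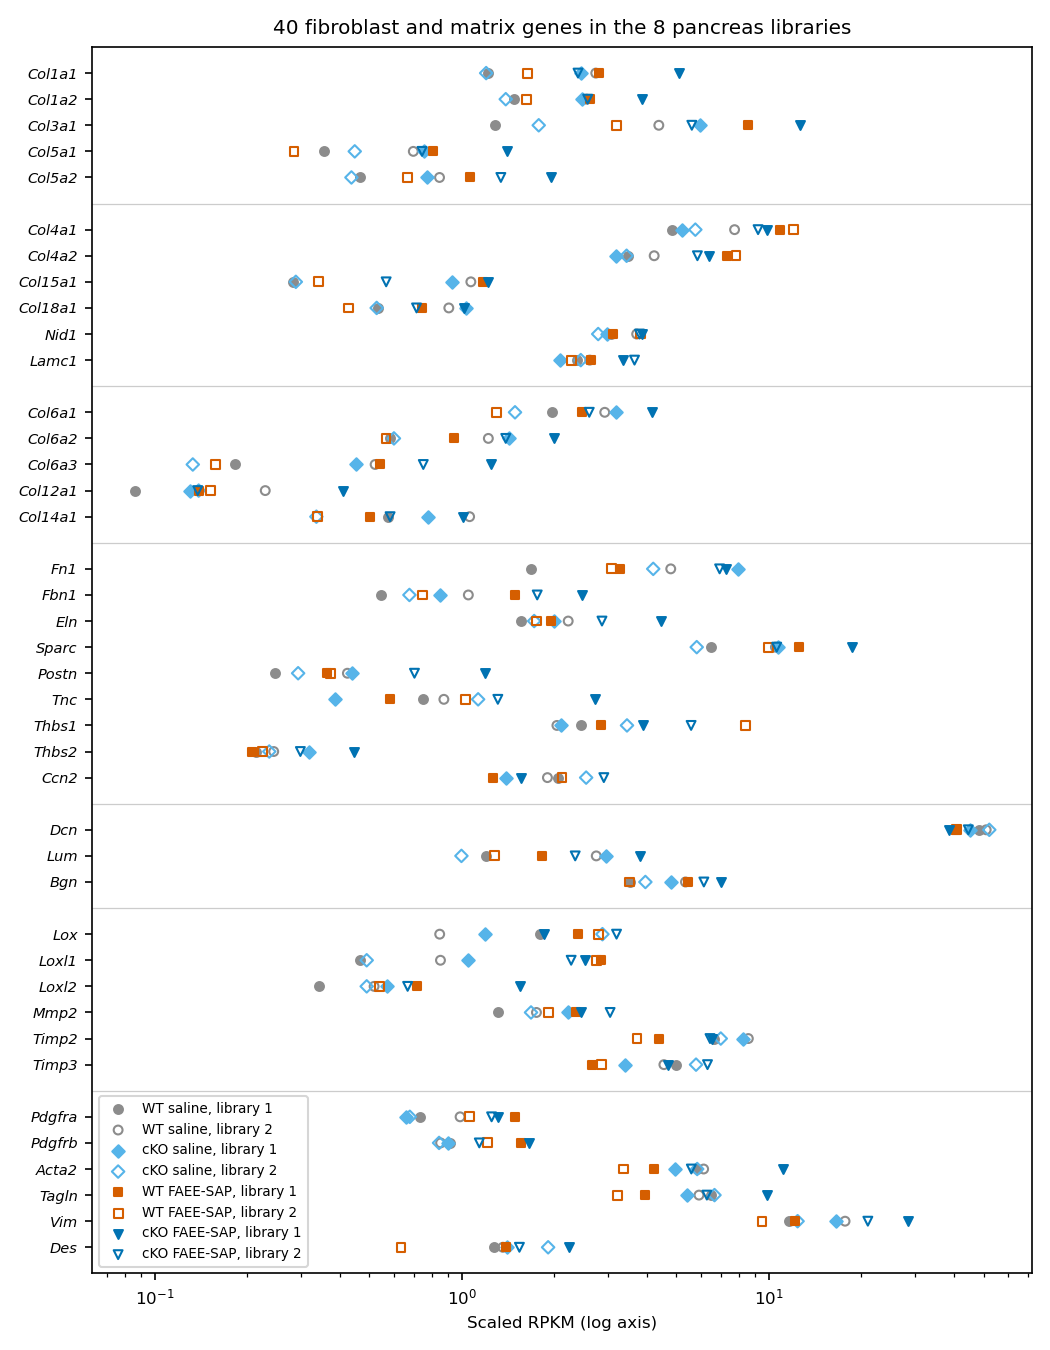
Each point is 1 library, at its scaled RPKM on a log axis, for the 40 members ordered by role, with filled symbols for library 1 and open symbols for library 2 of a group. *Dcn* sits alone at 38.6 to 52.2, and the filled triangles of cKO FAEE-SAP library 1 are the rightmost points for many of the collagen rows.

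Fibrillar collagens form the load-bearing fibers of the interstitium, and none of the 5 genes was called in any comparison. *Col3a1*, the chain of collagen III, was the most abundant. Its scaled RPKM was 1.28 and 4.38 after saline and 8.52 and 3.19 after FAEE-SAP in WT mice, and 5.98 and 1.78 after saline and 12.6 and 5.61 after FAEE-SAP in cKO mice. After scaling the groups overlapped apart from cKO FAEE-SAP against WT saline, and library pairs of a group differed by 2.25-fold to 3.41-fold. Its log2 fold change after FAEE-SAP was 1.10 in WT mice (SE 0.80, limma adjusted p = 0.416) and 1.33 in cKO mice (SE 0.80, limma adjusted p = 0.571). The 95% interval in WT mice reached from -0.78 to 2.98. As deposited the FAEE-SAP values of *Col3a1* were above the saline values in both genotypes. The differences were then 2.38 in WT and 1.96 in cKO mice, beside 1.23 and 0.57 over all genes. *Col1a1* and *Col1a2*, the chains of collagen I, had log2 fold changes of 0.22 and 0.08 in WT mice and 0.98 and 0.73 in cKO mice. *Col5a2*, a chain of collagen V that sets fibril diameter, had 0.36 in WT mice and 1.33 in cKO mice (SE 0.38, limma adjusted p = 0.293), and both of its cKO FAEE-SAP values, 1.95 and 1.34, were above those of every other library, whereas as deposited they lay at 2.03 and 1.30 beside 2.13 and 1.28 in WT FAEE-SAP. *Col5a1* had -0.03 and 0.72.

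In the basement membrane, the 2 collagen IV genes stood apart from the others. *Col4a1* and *Col4a2* encode the chains that form the most common collagen IV trimer, and lie head to head on chromosome 8 of GRCm38 (*Col4a1* from 11198423 to 11312826 on the minus strand, *Col4a2* from 11312805 to 11449287 on the plus strand), with 22 exonic bases in common. Their promoter windows from RefSeq (GRCm38.p6, 250 bases before and 50 after the start) are shown because the pair is transcribed from 1 region in both directions. The windows lie at chr8:11312777-11313076 (minus strand) for *Col4a1* and chr8:11312555-11312854 (plus strand) for *Col4a2*, and the 78 bases in capitals are the stretch that both hold, read on opposite strands.
Col4a1: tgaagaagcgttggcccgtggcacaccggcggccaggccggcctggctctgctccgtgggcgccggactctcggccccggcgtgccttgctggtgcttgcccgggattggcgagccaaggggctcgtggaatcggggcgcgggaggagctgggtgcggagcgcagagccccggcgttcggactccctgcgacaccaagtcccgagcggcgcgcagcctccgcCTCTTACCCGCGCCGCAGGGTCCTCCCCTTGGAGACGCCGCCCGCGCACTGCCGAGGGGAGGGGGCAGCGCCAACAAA
Col4a2: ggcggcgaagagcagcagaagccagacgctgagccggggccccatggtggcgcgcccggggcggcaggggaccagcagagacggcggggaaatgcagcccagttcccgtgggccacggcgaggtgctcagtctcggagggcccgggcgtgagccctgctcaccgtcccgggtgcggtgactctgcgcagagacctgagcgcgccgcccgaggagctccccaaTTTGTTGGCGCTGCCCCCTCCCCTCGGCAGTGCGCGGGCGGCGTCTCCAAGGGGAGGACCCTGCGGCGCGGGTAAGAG
G and C made up 74% of the first window and 73.7% of the second.

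Scaled RPKM of *Col4a2* was 3.47 and 4.23 in saline-treated and 7.32 and 7.81 in FAEE-SAP WT mice, against 3.17 and 3.44 in saline-treated and 6.37 and 5.85 in FAEE-SAP cKO mice. *Col4a1* was at 4.82 and 7.73 after saline and 10.9 and 12 after FAEE-SAP in WT mice, and 5.20 and 5.76 after saline and 9.89 and 9.22 after FAEE-SAP in cKO mice. For both genes all 4 FAEE-SAP libraries were above all 4 saline libraries. The log2 fold change of *Col4a2* in WT mice was 0.96 (SE 0.17, limma adjusted p = 0.0172), which passed the adjusted p and lay just under the 2-fold minimum, and in cKO mice it was 0.87 (SE 0.17, limma adjusted p = 0.140). *Col4a1* had 0.89 in WT mice (SE 0.23, limma adjusted p = 0.0531) and 0.79 in cKO mice (SE 0.23, limma adjusted p = 0.313). For the difference between the genotypes in this response after scaling, *Col4a2* had -0.09 with a 95% interval from -0.65 to 0.47. *Col4a1* had -0.10 with an interval from -0.87 to 0.67. As deposited the response of *Col4a2* was 2.26 in WT and 1.5 in cKO mice. That of *Col4a1* was 2.2 and 1.43, beside 1.23 and 0.57 over all genes. As deposited both genes were also called lower in cKO against WT after FAEE-SAP. The differences were -1.27 for *Col4a2* and -1.22 for *Col4a1*, beside -0.9 over all genes. The shared exonic bases of the 2 neighbors are 0.295% and 0.332% of their exonic lengths.

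The other 4 basement membrane genes had smaller or less steady differences, and none was called. *Nid1*, the nidogen that links laminin to collagen IV, ranged only from 2.78 to 3.87 over the 8 libraries and had log2 fold changes of 0.03 in WT and 0.40 in cKO mice. *Lamc1*, the shared laminin gamma chain, was at 2.64 and 2.28 in WT FAEE-SAP and at 3.36 and 3.65 in cKO FAEE-SAP, without overlap (log2 fold change 0.49 for cKO against WT, SE 0.18, limma adjusted p = 0.154), but as deposited the order turned, to 5.32 and 4.39 against 3.50 and 3.54 RPKM. *Col18a1*, the source of endostatin, and *Col15a1*, a related collagen at the edge of basement membranes, had 0.18 and 0.57 in cKO mice and -0.26 and 0.16 in WT mice. *Col15a1* differed by 2.15-fold to 3.77-fold between the 2 libraries of a group.

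Collagen VI forms beaded filaments between fibrils and cells. *Col6a1*, its most abundant chain, was at 1.97 and 2.92 in saline-treated and 2.47 and 1.30 in FAEE-SAP WT mice, against 3.17 and 1.49 in saline-treated and 4.16 and 2.60 in FAEE-SAP cKO mice. Both cKO FAEE-SAP libraries were above both WT FAEE-SAP libraries for all 4 genes of this role tested, *Col6a1*, *Col6a2*, *Col6a3* and *Col14a1*. Their log2 fold changes for cKO against WT after FAEE-SAP ranged from 0.76 (*Col14a1*, a fibril-associated collagen) to 1.39 (*Col6a3*, SE 0.63), and the lowest limma adjusted p was 0.224. As deposited the difference was -0.09 for *Col6a1* and -0.06 for *Col14a1*, beside -0.90 over all genes. In WT mice after FAEE-SAP all 4 were negative, from -0.78 to -0.04 (positive as deposited), and in cKO mice all 4 were positive, from 0.50 to 1.58. None of these was called. *Col12a1*, another fibril-associated collagen, was under the minimum, at 0.0863 to 0.411.

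Among the glycoproteins, *Sparc* was the most abundant. It was at 6.47 and 10.5 after saline and 12.5 and 9.95 after FAEE-SAP in WT mice, and 10.7 and 5.82 after saline and 18.7 and 10.6 after FAEE-SAP in cKO mice. After scaling the saline and FAEE-SAP libraries overlapped in each genotype, and the log2 fold changes were 0.43 (SE 0.39) in WT and 0.83 (SE 0.39) in cKO mice. As deposited the *Sparc* values did not overlap in either genotype, and the differences were 1.74 and 1.47. *Fn1*, fibronectin, was at 1.68 and 4.79 in saline-treated and 3.27 and 3.08 in FAEE-SAP WT mice, against 7.94 and 4.20 in saline-treated and 7.26 and 6.91 in FAEE-SAP cKO mice. Its log2 fold change for cKO against WT was 1.13 after FAEE-SAP (SE 0.47, limma adjusted p = 0.208) and 1.0 after saline (SE 0.47, limma adjusted p = 1), where the libraries overlapped. After FAEE-SAP *Fn1* had 0.15 in WT and 0.29 in cKO mice. As deposited these were 1.43 and 0.93, beside 1.23 and 0.57 over all genes. For cKO against WT after FAEE-SAP it was 0.19 as deposited, beside -0.90.

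*Eln*, elastin, was between 1.56 and 2.22 in the saline and WT FAEE-SAP libraries and at 4.45 and 2.86 in cKO FAEE-SAP, a log2 fold change of 0.91 in cKO mice (SE 0.26, limma adjusted p = 0.308). *Fbn1*, the fibrillin of microfibrils, had 1.35 in cKO mice (SE 0.39, limma adjusted p = 0.308) and 0.43 in WT mice. *Postn*, periostin, a matricellular protein of remodeling tissue, was at 1.19 and 0.701 in cKO FAEE-SAP and at most at 0.438 elsewhere, with 1.14 in cKO mice (SE 0.34, limma adjusted p = 0.314). For these 3 genes the cKO FAEE-SAP libraries were the highest of the 8 after scaling, and none was called. As deposited they overlapped with the WT FAEE-SAP libraries, and the differences for cKO against WT were -0.02 for *Eln*, 0.01 for *Fbn1* and 0.31 for *Postn*. *Tnc*, tenascin C, followed in the same direction, with 1.37 in cKO (SE 0.51) and -0.04 in WT mice.

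*Thbs1*, thrombospondin 1, is an activator of latent TGF-beta. It was at 2.44 and 2.04 after saline and 2.84 and 8.37 after FAEE-SAP in WT mice, and 2.10 and 3.45 after saline and 3.89 and 5.58 after FAEE-SAP in cKO mice. Its log2 fold change of 1.10 in WT mice (SE 0.49, limma adjusted p = 0.185) went with 1 high library, WT FAEE-SAP library 2, and library 1 was also above both saline values. *Ccn2*, a matricellular target of TGF-beta and YAP, had -0.26 in WT and 0.17 in cKO mice, with overlapping libraries. *Thbs2* was under the minimum, at 0.208 to 0.447.

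After scaling *Dcn* was the steadiest of the 40 genes, although as deposited it was higher by 1.03 in WT mice, beside 1.23 over all genes. It was at 48.3 and 51.0 in saline-treated and 40.6 and 40.9 in FAEE-SAP WT mice, against 45.3 and 52.2 in saline-treated and 38.6 and 44.6 in FAEE-SAP cKO mice. All 4 FAEE-SAP libraries were below all 4 saline libraries. Its log2 fold change was -0.28 in WT mice, with a 95% interval from -0.63 to 0.07, and -0.23 in cKO mice, with an interval from -0.58 to 0.12. *Lum*, lumican, its neighbor on chromosome 10, varied 3.82-fold over the 8 libraries and had -0.23 and 0.76. *Bgn*, biglycan, had 0.01 and 0.57. None of the 3 proteoglycans was called.

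The enzymes that process the matrix held the 1 call. *Loxl1*, a lysyl oxidase that crosslinks elastin, is encoded on chromosome 9 (minus strand, 58287738 to 58313186 in GRCm38). It was at 0.466 and 0.852 after saline and 2.83 and 2.75 after FAEE-SAP in WT mice, and 1.05 and 0.490 after saline and 2.52 and 2.27 after FAEE-SAP in cKO mice. The 4 FAEE-SAP libraries were all above the 4 saline libraries. It rose in WT mice by 1.98 on the log2 scale (SE 0.36, limma adjusted p = 0.0194, 95% interval 1.14 to 2.82). In cKO mice its log2 fold change was 1.59 (SE 0.36, limma adjusted p = 0.216), and the difference between the genotypes in this response was -0.38 (SE 0.51, limma adjusted p = 0.800), with an interval from -1.58 to 0.82. The call in WT mice was lost without WT saline library 1 (1.60, limma adjusted p = 0.114), without WT FAEE-SAP library 1 (1.96, limma adjusted p = 0.0654), and without WT FAEE-SAP library 2 (2.0, limma adjusted p = 0.115). *Lox*, the founding member of the family, had 1.0 in WT mice (SE 0.48, limma adjusted p = 0.222) and 0.38 in cKO mice. *Loxl2*, which crosslinks collagen IV, had 0.46 and 0.84, and *Mmp2*, a gelatinase, had 0.46 and 0.48.

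The tissue inhibitors of metalloproteinases had negative differences in WT mice after scaling, which were 0.42 for *Timp2* and 0.51 for *Timp3* as deposited, beside 1.23 over all genes. *Timp2* was at 6.61 and 8.57 in saline-treated and 4.39 and 3.72 in FAEE-SAP WT mice, against 8.21 and 6.97 in saline-treated and 6.54 and 6.43 in FAEE-SAP cKO mice. The WT FAEE-SAP libraries were the lowest of the 8. Its log2 fold change in WT mice was -0.88 (SE 0.19, limma adjusted p = 0.0336), which passed the adjusted p but not the 2-fold minimum, against -0.22 in cKO mice (SE 0.19, limma adjusted p = 0.703). The difference between these responses was 0.66 (SE 0.27, limma adjusted p = 0.387) and was not called. *Timp3*, which binds to the matrix, was at 2.65 and 2.85 in WT FAEE-SAP and between 3.40 and 6.31 in the other 6 libraries, with -0.77 in WT (SE 0.27, limma adjusted p = 0.114) and 0.29 in cKO mice (SE 0.27). *Timp3* shares 21.3% of its exonic length with *Syn3* on the other strand, which was at most 0.0533 RPKM as deposited.

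**Figure D3:**
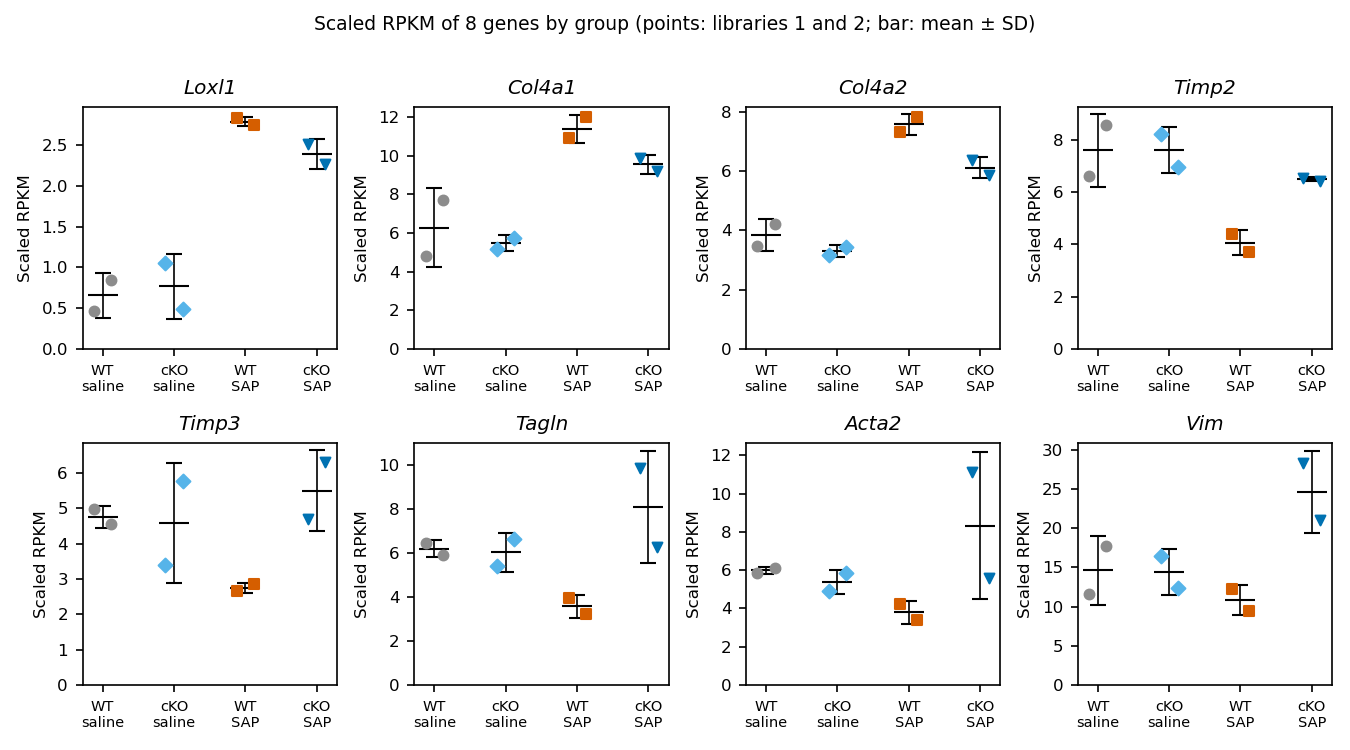
Points are the scaled RPKM of the 2 libraries of each group, and the bars give the mean ± SD (n = 2), for 8 genes on linear axes that start at 0. *Loxl1*, *Col4a1* and *Col4a2* separate the FAEE-SAP from the saline libraries in both genotypes, while for *Timp2*, *Timp3*, *Tagln*, *Acta2* and *Vim* both WT FAEE-SAP libraries lie below both cKO FAEE-SAP libraries after scaling. As deposited *Timp2* turned (-0.28 for cKO against WT on the log2 scale) and the other 4 overlapped.

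Receptors and cytoskeleton split into 2 patterns. *Pdgfra* and *Pdgfrb*, the receptors for platelet-derived growth factor that mark fibroblasts and pericytes, had positive differences of like size in both genotypes. For *Pdgfra* the log2 fold change was 0.51 in WT (SE 0.23, limma adjusted p = 0.189) and 0.84 in cKO mice (SE 0.23, limma adjusted p = 0.283). *Pdgfrb* had 0.58 and 0.60 (SE 0.23 each), and all 4 of its FAEE-SAP values, 1.14 to 1.65, were above the saline values of 0.843 to 0.915. For cKO against WT after FAEE-SAP, *Pdgfra* and *Pdgfrb* had 0.02 and 0.00, with 95% intervals from -0.52 to 0.56 and from -0.54 to 0.54. As deposited both were lower in cKO without overlap, with -0.89 and -0.92, beside -0.90 over all genes.

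The cytoskeletal genes were lower in WT than in cKO FAEE-SAP libraries after scaling, without passing the test. *Vim* was at 11.6 and 17.7 after saline and 12.2 and 9.49 after FAEE-SAP in WT mice, and 16.5 and 12.4 after saline and 28.3 and 21.0 after FAEE-SAP in cKO mice. *Tagln*, transgelin, an actin-binding protein of smooth muscle and myofibroblasts, was at 6.47 and 5.92 in saline-treated and 3.96 and 3.21 in FAEE-SAP WT mice, against 5.41 and 6.65 in saline-treated and 9.87 and 6.28 in FAEE-SAP cKO mice. *Acta2*, smooth muscle actin, was at 5.85 and 6.13 after saline and 4.23 and 3.37 after FAEE-SAP in WT mice, and 4.93 and 5.84 after saline and 11.1 and 5.59 after FAEE-SAP in cKO mice. For all 3 the cKO FAEE-SAP pair lay above the WT FAEE-SAP pair, but for *Tagln* and *Acta2* cKO library 2 was within the range of the saline libraries. The log2 fold changes for cKO against WT after FAEE-SAP were 1.17 for *Vim* (SE 0.28, limma adjusted p = 0.0719), 1.12 for *Tagln* (SE 0.25, limma adjusted p = 0.0639), and 1.04 for *Acta2* (SE 0.31, limma adjusted p = 0.112). *Des*, desmin, had 0.90 (SE 0.36, limma adjusted p = 0.189). As deposited the WT and cKO FAEE-SAP libraries overlapped for *Vim*, *Tagln*, *Acta2* and *Des*. The differences were 0.21, 0.17, 0.09 and 0.01, beside -0.90 over all genes. *Tagln* shares 62.4% of its exonic length with *Gm48529* on the other strand. It also shares 5.43% with *Pcsk7* on that strand, a protein-coding gene at up to 3.26 RPKM as deposited. Whether the deposited values use strand is not given in the sources used here.

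Against their own saline groups these genes had differences of opposite sign in the 2 genotypes after scaling, and of the same positive sign as deposited. In WT mice *Tagln* had -0.78 (SE 0.25, limma adjusted p = 0.0892), *Acta2* -0.65 (SE 0.31, limma adjusted p = 0.214), and *Vim* -0.41 (SE 0.28). In cKO mice the same genes had 0.39, 0.54, and 0.77. The interaction was 1.17 for *Tagln* (SE 0.35, limma adjusted p = 0.281), 1.20 for *Acta2* (SE 0.44, limma adjusted p = 0.346), and 1.18 for *Vim* (SE 0.39, limma adjusted p = 0.315), and none of these was called. Without cKO FAEE-SAP library 1 the difference between cKO and WT after FAEE-SAP was 0.96 for *Vim*, 0.80 for *Tagln* and 0.56 for *Acta2*.

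Variation between the 2 libraries of a group was shared by many members, as the plot of library differences shows. In WT saline, library 2 was higher than library 1 for 32 of the 38 members, with a median log2 difference of 0.57, where library 2 was higher for 47.5% of all genes. In the other groups library 1 was higher for most members, 25 of 38 in cKO saline, 28 in WT FAEE-SAP, and 31 in cKO FAEE-SAP. All 5 fibrillar collagens and all 4 tested genes of collagens VI and XIV went with the majority in each group. *Lox*, *Thbs1*, *Ccn2* and *Timp3* went against it in all 4 groups, *Lox* with library 2 lower by 1.0 in WT saline and higher by 1.21, 0.22, and 0.75 on the log2 scale in cKO saline, WT FAEE-SAP, and cKO FAEE-SAP. A difference of over 2-fold between the libraries of a group occurred in 18.4%, 23.7%, 15.8%, and 7.89% of the members and in 5.80%, 6.93%, 4.96%, and 7.53% of all genes, in the order WT saline, cKO saline, WT FAEE-SAP, cKO FAEE-SAP.

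**Figure D4:**
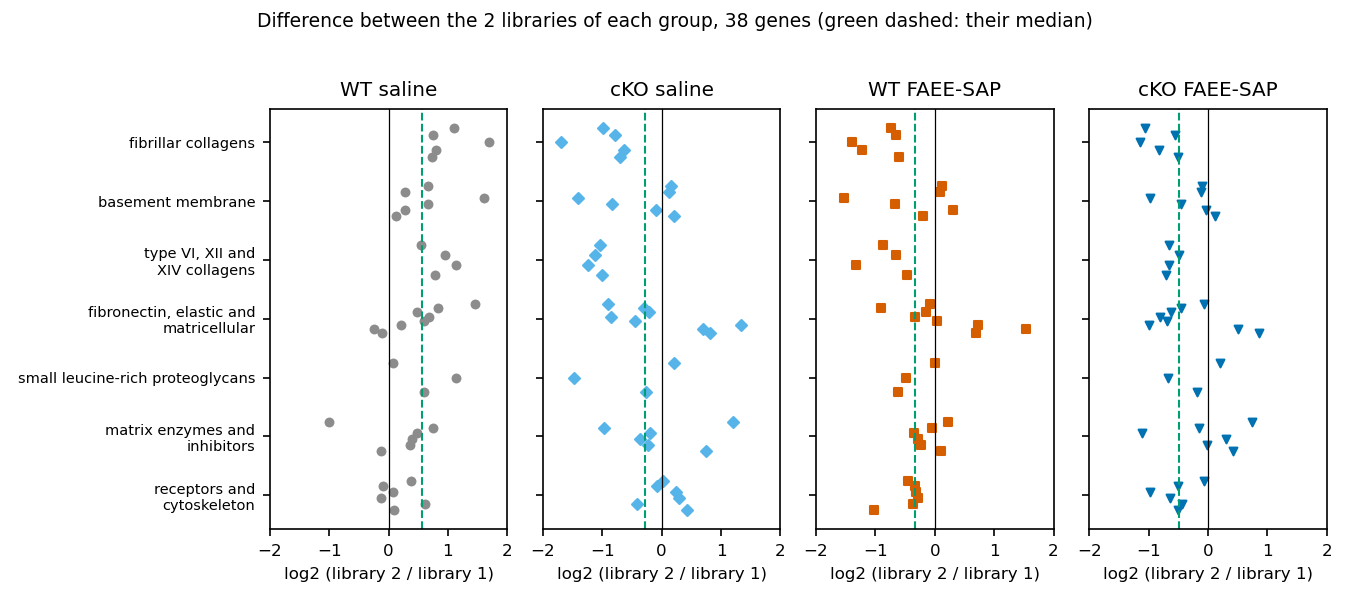
Each point is 1 member, placed at the log2 ratio of library 2 to library 1 of the group named above the panel and in the row of its role, and the green dashed line is the median. The median lies at 0.57 in WT saline and at -0.28, -0.33, and -0.49 in cKO saline, WT FAEE-SAP, and cKO FAEE-SAP.

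Markers of other cells moved with groups and libraries too, and their part in the results was not tested. Summed scaled RPKM of the 40 members was 134 and 171 after saline and 159 and 143 after FAEE-SAP in WT mice, and 159 and 147 after saline and 225 and 187 after FAEE-SAP in cKO mice. Fibroblast and stellate cell markers that are no members (20 genes) summed to 19.0 to 27.5 in saline, 32.4 and 21.5 (WT) and 35.0 and 18.6 (cKO) after FAEE-SAP. None of the 14 tested was called, and their median log2 fold change was 0.16 in WT mice, 0.20 in cKO mice, and 0.15 for cKO against WT after FAEE-SAP. As deposited these medians were 1.36, 0.71, and -0.72. *Gfap* and *Lrat*, markers of quiescent stellate cells, were at or near 0, at most 0.107 and 0.130. *Dpt*, dermatopontin, was at 4.48 to 8.40.

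Smooth muscle and pericyte markers (11 genes) summed to 10.5 to 14.2 in saline, 8.31 and 7.39 (WT) and 16 and 9.19 (cKO) after FAEE-SAP, and all 10 tested were higher in cKO than in WT after FAEE-SAP, with a median of 0.54 (-0.29 as deposited) and none called. Endothelial markers (12 genes) summed to 27.7 to 31.6 in saline, 28.7 and 23.8 (WT) and 41.6 and 33.7 (cKO) after FAEE-SAP, with a median of 0.37 for cKO against WT after FAEE-SAP (-0.55 as deposited) and none called. Macrophage markers (9 genes) summed to 79.5 to 97.8 in saline, 115 and 87.3 (WT) and 135 and 118 (cKO) after FAEE-SAP. The median of the 9 was 0.81 in cKO mice and 0.66 for cKO against WT after FAEE-SAP (-0.29 as deposited), with 7 of 9 positive there after scaling and 5 of them at an unadjusted p under 0.05. *Cd14*, the only one called, went against the list, higher in WT mice after FAEE-SAP and lower in cKO against WT. Neutrophil markers (9 genes) summed to 1.43 to 3.88 in saline, 61.0 and 57.2 (WT) and 20.2 and 13.6 (cKO) after FAEE-SAP, and all 7 tested rose in WT mice. After scaling the neutrophil sum was highest in WT FAEE-SAP and the smooth muscle, endothelial, macrophage, and member sums in cKO FAEE-SAP library 1. As a share of the summed RPKM as deposited, all of these were highest in WT FAEE-SAP library 1. There the members held 0.0641% against 0.0412% in cKO FAEE-SAP library 1. Smooth muscle and pericyte markers lay closer, at 0.00335% against 0.00293%.

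Of the remaining lists, acinar markers (15 genes) fell in WT mice for 12 genes and summed to 70600 and 73400 in WT FAEE-SAP, 184000 and 204000 in cKO FAEE-SAP, and 242000 to 323000 in saline. As deposited the median of the list in WT mice was -0.82 against -2.12 after scaling, *Gp2* and *Nr5a2* were positive, and the list held 28.5% and 28.6% of the summed RPKM against 35.7% to 37.2% in saline. Ductal markers (9 genes) summed to 123 to 133 in saline, 318 and 368 (WT) and 176 and 232 (cKO) after FAEE-SAP. *Krt8* and *Krt18* were the most abundant, at 31.4 and 44.9 RPKM as deposited in WT saline library 1, beside 4.92 for *Krt19*. The sum follows mainly these 2 genes and is not a measure of duct cells alone. Of 8 tested, *Epcam*, *Krt8* and *Krt18* rose in WT mice, while 3 were negative after scaling, the lowest at -0.63, and not called. Among these *Krt7* and *Sox9* had -0.39 and -0.42, which were 0.64 and 0.77 as deposited. *Epcam* and *Krt8* were lower in cKO than in WT after FAEE-SAP, by 1.24 and 1.03 on the log2 scale (limma adjusted p = 0.0428 and 0.0493). Mesothelial markers (7 genes) summed to 2.42 to 5.87 in saline, 1.24 and 1.13 (WT) and 4.6 and 1.63 (cKO) after FAEE-SAP, and *Upk3b* fell in WT mice. Lymphocyte markers (9 genes) summed to 9.67 to 24.1 over the 8 libraries, adipocyte markers (7 genes) to 19.0 to 72.4, and Schwann cell markers (6 genes) to 1.98 to 3.46, and none of these 3 lists held a call. In cKO FAEE-SAP library 2, lymphocyte, adipocyte, and mesothelial markers were lower than in library 1, by medians of 1.08, 2.35, and 1.23 on the log2 scale.

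**Figure D5:**
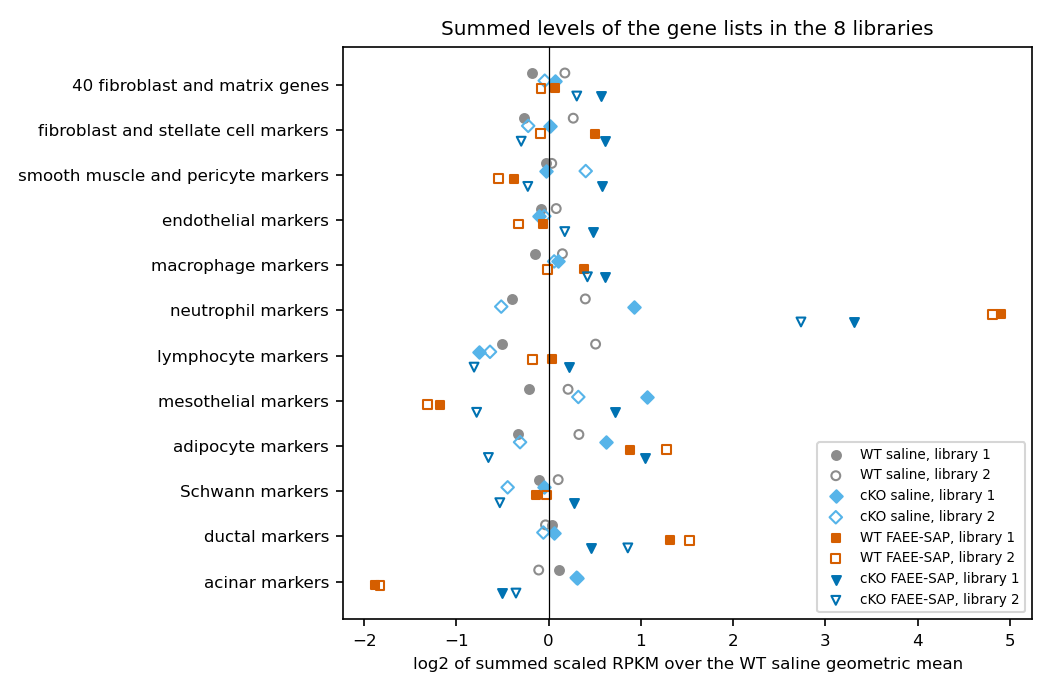
The horizontal axis is the log2 of the summed scaled RPKM of a list over the geometric mean of the 2 WT saline libraries, with 1 point per library, for the 40 members and 11 marker lists. The sum of the members varies less than the neutrophil, ductal, and acinar sums, and cKO FAEE-SAP library 1 is its rightmost point, at a summed scaled RPKM of 225.

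Other genes of matrix and signaling were taken from lists by family and function, none of which held a call in cKO mice after FAEE-SAP, between the genotypes after saline, or in the interaction. Of 34 further matrix genes tested, 2 rose and 4 fell in WT mice after FAEE-SAP, and 1 was higher in cKO than in WT after FAEE-SAP. *Vcan*, the proteoglycan versican, rose by 2.22 on the log2 scale in WT mice (SE 0.29, limma adjusted p = 0.00606) from at most 0.160 in saline to at least 0.727 in FAEE-SAP libraries of both genotypes. *Vtn*, vitronectin, an adhesive glycoprotein also found in plasma, fell by 2.08 in WT mice (limma adjusted p = 0.00124) and was higher by 1.22 in cKO against WT after FAEE-SAP (limma adjusted p = 0.0196), at 3.55 and 2.87 against 8.14 and 7.09. *Ogn* and *Aspn*, small leucine-rich proteoglycans, fell in WT mice by 2.04 and 1.42 (limma adjusted p = 0.0263 and 0.0162). Both had negative differences in cKO mice that were not called, -0.86 and -0.33. As deposited the genotype difference of *Vtn* was 0.28, with overlapping libraries, and the WT differences were -0.78 for *Vtn*, -0.85 for *Ogn* and -0.40 for *Aspn*.

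Collagen also needs enzymes and chaperones of the endoplasmic reticulum. Of 19 genes tested from a list of collagen synthesis, processing and its regulation, 2 fell in WT mice after FAEE-SAP. The same 2 were higher in cKO than in WT. *Creb3l1*, a transcription factor that can activate collagen I genes, was at 4.45 and 4.19 in WT saline, 1.64 and 1.32 (WT) and 6.07 and 4.52 (cKO) after FAEE-SAP. It fell by 1.49 in WT mice (limma adjusted p = 0.00695) and was higher by 1.77 in cKO against WT after FAEE-SAP (limma adjusted p = 0.00913). *Ppib*, cyclophilin B, which folds procollagen and other secreted proteins, fell by 1.40 in WT mice (limma adjusted p = 0.00622), from 145 and 148 to 60.4 and 50.7. As deposited the WT difference was -0.09 for *Ppib* and -0.23 for *Creb3l1*, with overlapping libraries, beside 1.23 over all genes. For cKO against WT after FAEE-SAP it was 0.09 for *Ppib*, with overlapping libraries, and 0.84 for *Creb3l1*, beside -0.90. Acinar cells also express *Ppib*, and the acinar sums were lower in the same libraries. The part of acinar cells in the differences of *Ppib* and *Creb3l1* was not tested.

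Signals upstream were also examined. None of the 3 PDGF pathway genes tested was called. Of 12 genes tested from a list of SRF, YAP, their cofactors and their targets, *Actn1*, the crosslinker alpha-actinin, rose by 1.68 in WT mice (limma adjusted p = 0.00509) and was lower by 1.18 in cKO against WT after FAEE-SAP (limma adjusted p = 0.0353). *Myl9*, a light chain of smooth muscle myosin, fell by 1.26 in WT mice (limma adjusted p = 0.0442), although as deposited its difference was 0.01. The median log2 fold changes of the SRF and YAP list were 0.35 in WT and 0.06 in cKO mice.

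Motifs for factors that act on these genes were searched on both strands in the RefSeq windows of the 23 members that had one. These members had 27 windows. The TEAD core GGAATG was in 5 of the 27, those of *Acta2*, *Col18a1*, *Col3a1*, *Col6a2* and *Nid1*, and in 14.7% of all 32851 windows. TATAAA, the letters of the TATA box, was in 6 of the 27 windows, from 5 members, beside 13.6% of all windows. It began at -32 from the start in *Vim* and -26 in *Postn*. In *Col3a1* it began at -117, in *Thbs2* at -126, and in *Tnc* at -126 and -205. The AP-1 site TGACTCA or its reverse complement TGAGTCA was in 1, *Col6a1*, beside 5.20%. The CArG box, searched in its strict form with no mismatch, and the SMAD element GTCTAGAC were in none, beside 1.63% and 0.213%. The windows of *Col4a1* and *Col4a2* held none of the motifs searched, which says only that these letters are not in 300 bases. The same limit holds for every motif that was not found, and members without a window were not searched.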

How the data were processed

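RNA-Seq was performed on pancreas from 8 mice, 2 per group. The deposited values are RPKM per gene, made by the authors from paired-end reads of a directional library kit that were trimmed with fastp and aligned to GRCm38.p6 in CLC Genomics Workbench. How reads were counted, and whether by strand, is not given in the sources used here. Whether libraries of a group shared a cage or a batch of preparation is not given in the sources used here, so p-values measure only the spread between these libraries.

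RPKM were scaled by the median of ratios over 10985 genes and tested as log2(scaled RPKM + 0.1), so that fold changes of low genes are understated. All 8 libraries entered 1 fit of 4 group means in limma 3.58.1 (R 4.3.3) with an intensity trend, on the 11133 genes with an RPKM of 0.5 or more in 2 or more libraries, and p-values were adjusted by Benjamini-Hochberg over these. An exact permutation test of 2 against 2 libraries cannot give a p below 0.33 and was not used. Intervals are 95% intervals of the same fit. Figures were drawn with matplotlib 3.10.9 in Python 3.11.15.

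Depth was worked out from the steps of low values, of which 84.5% to 85.8% came out whole within 0.1 reads, and is approximate. With these totals the matched genes alone summed to 100.3% to 105.7% of the reads of a library. The depths and the read counts of members are therefore rough. Gene positions and overlaps are from GENCODE for GRCm38, to which 46319 of 48709 genes (95.1%) matched by symbol. The listed genes *Ccn1*, *Ltbp4*, *Mrtfa* and *Itgam* were not matched and are not used here. The TGF-beta pathway list is not reported here.

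The members and all gene lists were chosen with earlier results of these data known. Values in every library are given for each member called and for the most abundant member of each role (*Col3a1*, *Col4a1*, *Col6a1*, *Sparc*, *Dcn*, *Timp2*, *Vim*), and the other members shown by library were chosen after their values were seen. Alternatives were another scaling, filter, pseudocount or call rule, a fit without the intensity trend, a fit on the 4 libraries compared, a replicate block, and leaving out each library.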

Additional observations from a re-analysis of the deposited data

How the results depend on the processing

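With RPKM as deposited, without scaling, all genes shifted by a median of 1.23 in WT mice and 0.57 in cKO mice, and 64.7% and 6.69% of all genes were called, and 40% for cKO against WT after FAEE-SAP. Members called were then 23 in WT mice (median 1.27), 13 in cKO mice (median 1.30), and 3 lower for cKO against WT after FAEE-SAP, *Col4a1*, *Col4a2* and *Loxl1* (median -0.27, all genes -0.90). The interaction median was -0.02 beside -0.63. In WT mice all 18 members with a negative difference were then positive, and of these *Lamc1* (1.26), *Eln* (1.25), *Ccn2* (1.0) and *Dcn* (1.03) were called.

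*Loxl1* was called in WT mice under quantile and TMM scaling, no filter, an RPKM minimum of 2, pseudocounts of 1 and 0.01, no trend, and the fit on 4 libraries. TMM scaling gave 2 calls in WT mice, *Col4a2* and *Loxl1* (7.54% of all genes), and the adjusted p with no fold minimum gave 3, with *Timp2* (10.5%). An unadjusted p under 0.05 with the 2-fold minimum gave 6 members in cKO mice (3.33% of all genes), 5 for cKO against WT after FAEE-SAP (7.87%), and 4 for the interaction (7.03%). The interaction was not run on 4 libraries, since it needs all 8.

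Libraries with the same replicate number did not deviate alike in all groups. Correlations of same-numbered deviations ranged from -0.52 to 0.40 over the 6 pairs of groups. They were -0.32, -0.17 and -0.52 for WT saline with cKO saline, WT FAEE-SAP and cKO FAEE-SAP. Among the other groups they were positive, at 0.18, 0.40 and 0.30. The replicate block gave 1 call in WT mice and 0 in the other comparisons. With the numbers of the WT saline libraries exchanged, a pairing chosen after seeing the data, the replicate block gave 3 calls in WT mice (10.7% of all genes), 2 in cKO mice (0.566%), and 5 for cKO against WT after FAEE-SAP (6.56%).

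Leaving out 1 library in turn gave 0 to 2 calls in WT mice, with a median of -0.27 (without WT saline library 1) to 0.40 (without WT saline library 2), and 0 calls in the other comparisons. The median was 0.49 to 0.91 in cKO mice, -0.28 to 0.28 for cKO against WT after saline, 0.40 to 0.99 for cKO against WT after FAEE-SAP, and 0.31 to 0.96 for the interaction. The lone library of a group was assumed to vary like the others.

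With 2 libraries per group the 95% interval lay within 2-fold in both directions for 7 of 38 members in WT mice, 5 in cKO mice, 21 for genotype after saline, and 8 for genotype after FAEE-SAP, and for the remaining members it reached 2-fold.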
